A study of Mus musculus with 8 samples.

Results

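The genes described here encode the basement membrane, the sheet of matrix on which epithelia, vessels and muscle rest, together with 3 of its cell surface receptors. They were chosen by name: every probe set on the array whose gene symbol in the platform annotation was one of 32 symbols, for the type IV, XV and XVIII collagens, the laminin chains, the nidogens, perlecan, agrin, nephronectin and Egfl6, the Fras and Frem proteins, the Smoc proteins and the receptors dystroglycan and integrin alpha 6 and beta 4. These symbols covered 62 of the 45101 probe sets, and 31 of the 32 genes were among the 16112 genes tested.

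RNA was measured on 8 Affymetrix arrays of lung mesenchyme, which surrounds the branching epithelial tubes, from CD1 mouse embryos at e11.5 to e12.5. There were 4 groups of 2 arrays: branch tip and branch stalk mesenchyme taken straight from the dissection, and stalk mesenchyme kept for 12 h on tissue-culture plastic in growth medium alone (control culture) or with WNT1, a secreted signalling protein, at 400 ng/ml (Wnt1 culture). The labels name no allele or other agent, so tip and stalk differ in position, and the cultured groups differ from stalk in the culture and, for 1 of them, in Wnt1. How many embryos went into a sample, and whether replicates came from separate litters, is not stated in the labels, so each p-value reflects no more than the spread between these arrays, and that spread may be technical.

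A basement membrane is built on a network of type IV collagen and a network of laminin, each a trimer of different chains, with nidogens and the proteoglycans perlecan and agrin bridging them. Dystroglycan and the integrins hold cells to the laminin network, and Fras1, Frem1 and Frem2 form a complex that anchors embryonic epithelium to the tissue beneath it. In the branching lung the sheet lies between the epithelium and the mesenchyme, and its components are made by both as well as by the endothelium and the mesothelium that covers the organ.

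The RefSeq sequence just upstream of the start is shown for 3 of the 10 genes that passed the threshold in a culture comparison (below), each of them lower in culture. They are the genes with an entry of which at least 200 upstream bases lie outside the annotated ends of the gene and over no other coding gene, and only that stretch is printed. Each is given 5' to 3' on the strand of the gene in build GRCm38.p6. Capitals mark the GC box, GGGCGG or its reverse complement CCGCCC, and the CCAAT box, CCAAT or its reverse complement ATTGG. The collagen XVIII gene Col18a1 is on the minus strand (chr10:77166531-77166780), the nidogen-1 gene Nid1 on the plus strand (chr13:13437352-13437601) and the agrin gene Agrn on the minus strand (chr4:156197534-156197738).
Col18a1: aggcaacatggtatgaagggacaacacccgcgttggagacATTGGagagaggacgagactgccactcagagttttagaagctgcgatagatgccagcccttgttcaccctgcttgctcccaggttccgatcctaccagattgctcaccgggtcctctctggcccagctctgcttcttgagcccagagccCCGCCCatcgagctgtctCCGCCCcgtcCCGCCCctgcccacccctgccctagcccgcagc
Nid1: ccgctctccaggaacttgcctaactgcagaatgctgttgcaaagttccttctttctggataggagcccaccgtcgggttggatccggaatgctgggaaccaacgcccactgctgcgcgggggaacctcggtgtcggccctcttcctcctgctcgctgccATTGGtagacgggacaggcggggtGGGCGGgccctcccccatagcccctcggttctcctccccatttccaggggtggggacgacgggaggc
Agrn: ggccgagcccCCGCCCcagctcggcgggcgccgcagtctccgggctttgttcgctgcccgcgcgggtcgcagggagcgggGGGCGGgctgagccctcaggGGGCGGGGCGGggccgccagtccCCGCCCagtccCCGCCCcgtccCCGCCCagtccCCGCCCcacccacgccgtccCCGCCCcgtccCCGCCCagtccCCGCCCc

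The Agrn stretch of 205 bases was 84.4% G and C, with 28 CpG and 11 GC boxes, of which neighbours that overlap were counted separately, and no CCAAT box. The Col18a1 stretch held 12 CpG, 3 GC boxes and 1 CCAAT box, and the Nid1 stretch held 16 CpG, 1 GC box and 1 CCAAT box. An upstream window of 250 bases was present for 20 of the 32 genes, 26 windows in all, since some genes have several starts. On either strand a GC box stood in 14 of these 26 windows and in 32.7% of the 32851 windows of the same length over all genes, and a CCAAT box in 10 of 26 and in 33.8%. The letters TATAAA were in none of the 26 and in 12.4% of all windows, and CTTTGAT, a motif of the TCF and LEF factors of Wnt signalling, in none and in 3.21%. The median window of these genes held 11 CpG and 62.0% G and C, against 6 CpG and 52.4% over all windows. Col4a1 and Col4a2 start 21 bases apart on opposite strands, and Col4a5 and Col4a6 start 1343 bases apart. A motif match is a description of letters and not of binding.

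Of the 62 probe sets, 56 passed the filter on low values, above 96.6 on at least 2 arrays, and 12 genes had 1 probe set and 20 had several. Each gene is described below by its kept probe set of highest mean, and its level on an array is the deposited MAS5 signal on a linear scale. Differences are log2 fold changes of (signal + 44) with their standard error (SE), a scale that understates changes of dim genes. The deposited values carry no detection calls, so the highest median signal of any array, 299, stands in for the background. It is the median of a cultured array, and those of the uncultured arrays were 76.5 to 99.8. A signal called below background on an uncultured array can thus lie above the median of that array. By the mark of 299, 9 of the 31 tested genes were above background on all 8 arrays (Col4a1, Col4a2, Col4a5, Lamb1, Nid1, Hspg2, Agrn, Fras1 and Dag1), 20 on some arrays, and Col4a3 and Col4a6 on none. Itgb4, integrin beta 4 of hemidesmosomes, did not pass the filter: its signal was between 4.84 and 16.4 on the uncultured arrays and between 27.6 and 76.0 on the cultured ones, all below background.

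The cultured arrays stood apart in technical measures that touch every comparison with them. Median signal lay between 76.5 and 99.8 on uncultured arrays and between 149 and 299 on cultured ones, while the 2% trimmed mean of all 8 was 500.0. The ratio of 3' to 5' signal of beta-actin, a measure of RNA length, was 2.02 to 4.52 on the uncultured arrays, 21.2 to 24.4 on 3 cultured arrays and 6.81 on Wnt1 culture replicate 2. The same ratio of Gapdh was 3.10 to 5.87 on the uncultured arrays and 9.73 to 17.8 on the cultured ones. By Gapdh, Wnt1 culture replicate 2, at 9.93, lay among the other cultured arrays. Replicates correlated over genes at 0.974 in tip, 0.975 in stalk, 0.828 in control culture and 0.837 in Wnt1 culture. The mesenchyme markers of the lung (10 genes, such as Tbx4 and Foxf1) summed to between 11242 and 32730 on the 8 arrays, with the lowest single value at 52.2. In bulk tissue, fewer cells of a type and less RNA per cell cannot be told apart.

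**Figure D1:**
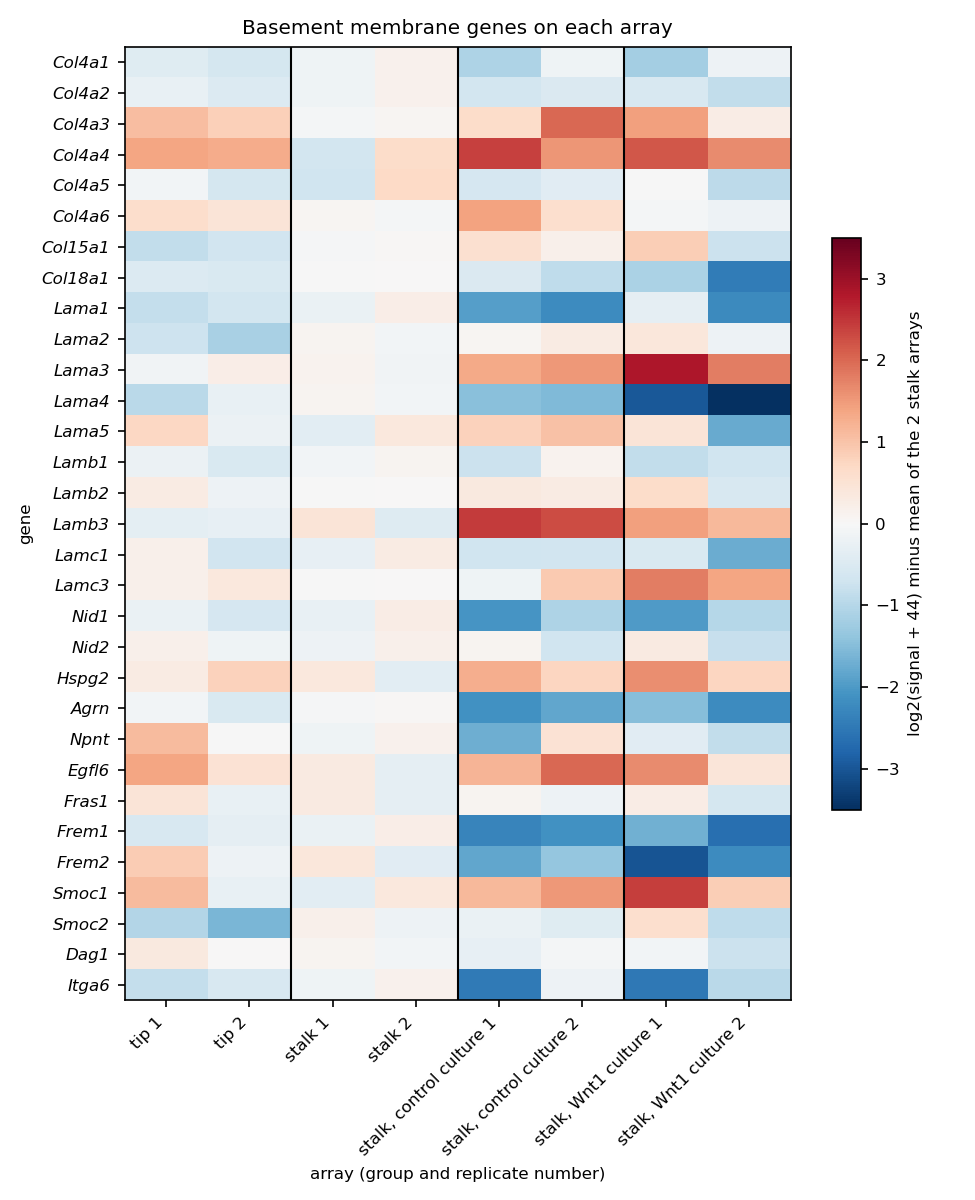
Signal of the 31 tested basement membrane genes (rows) on the 8 arrays (columns, by group and replicate number), coloured by log2(signal + 44) minus the mean of the 2 stalk arrays. Blue rows in culture include Lama4, Agrn, Frem1 and Frem2 on all 4 cultured arrays, and red rows include Lamb3, Lama3 and Col4a4.

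The first question is what 12 h of culture did to the basement membrane genes of stalk mesenchyme. In control culture the anchoring genes Frem1 and Frem2, agrin, nidogen-1 and the laminin chains Lama1 and Lama4 fell, and the laminin chain Lamb3 and the collagen chain Col4a4 rose. In Wnt1 culture Frem1, Frem2, Agrn, Nid1 and Lama4 again lay below stalk, with Col18a1, and Col4a4 and the laminin chain Lama3 lay above it. Each culture therefore had 6 lower and 2 higher of 31 genes past an adjusted p of 0.05 (limma, Benjamini-Hochberg over all genes). Both comparisons use the same 2 stalk arrays, so they are not independent of each other.

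The 8 genes past the threshold in control culture were 25.8% of the 31, against 25.9% of all genes tested, so their number was the share found over the whole array. By direction, 19.4% were lower, against 9.11% of all genes, and 6.45% were higher, against 16.8%. In Wnt1 culture 25.8% passed, against 15.9% of all genes, with 19.4% lower against 6.75% and 6.45% higher against 9.15%. The median log2 difference from stalk was -0.30 in control culture, against 0.43 over all genes, and -0.42 in Wnt1 culture, against 0.33. The shares and medians over all genes depended on signal level. Among the 11602 genes with a probe set above the highest array median on at least 2 arrays, the medians were 0.05 and 0.01. Of these genes 1818 were higher and 1474 lower in control culture, and 1162 and 1175 in Wnt1 culture. Differences lay below 0 for 58.1% of the 31 genes in control culture, against 38.6% of all genes, and for 64.5% in Wnt1 culture, against 40%. Both arrays of control culture lay below both stalk arrays for 11 genes (35.5%), against 25.3% of all genes, and above them for 11 (35.5%), against 45.9%. In Wnt1 culture the counts were 13 lower (41.9%), against 25.4%, and 8 higher (25.8%), against 41.2%.

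These counts depended on single arrays. In each fit below with 1 array left out, the number called over all genes moved in the same direction. Without either stalk array most of the calls over all genes were lost too, so the loss was not particular to these genes. Without stalk replicate 1 or without stalk replicate 2, 0 of the 31 genes passed in control culture and 1, Lama4, passed in Wnt1 culture. Without control culture replicate 1, Agrn and Frem1 were the 2 genes that passed in control culture, and without Wnt1 culture replicate 1 the genes that passed in Wnt1 culture numbered 6. They numbered 5 without either tip array, which enters through the shared estimate of the spread. Leaving out Wnt1 culture replicate 2 took the number to 12 in Wnt1 culture and to 11 in control culture. After quantile normalization, which took the median of all genes to 0.02 and 0.03, the calls were 0 higher and 4 lower in control culture and 0 higher and 3 lower in Wnt1 culture. Over all genes the split moved from 2712 higher and 1467 lower to 542 and 666 in control culture. In Wnt1 culture it moved from 1475 and 1087 to 307 and 350.

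**Figure D2:**
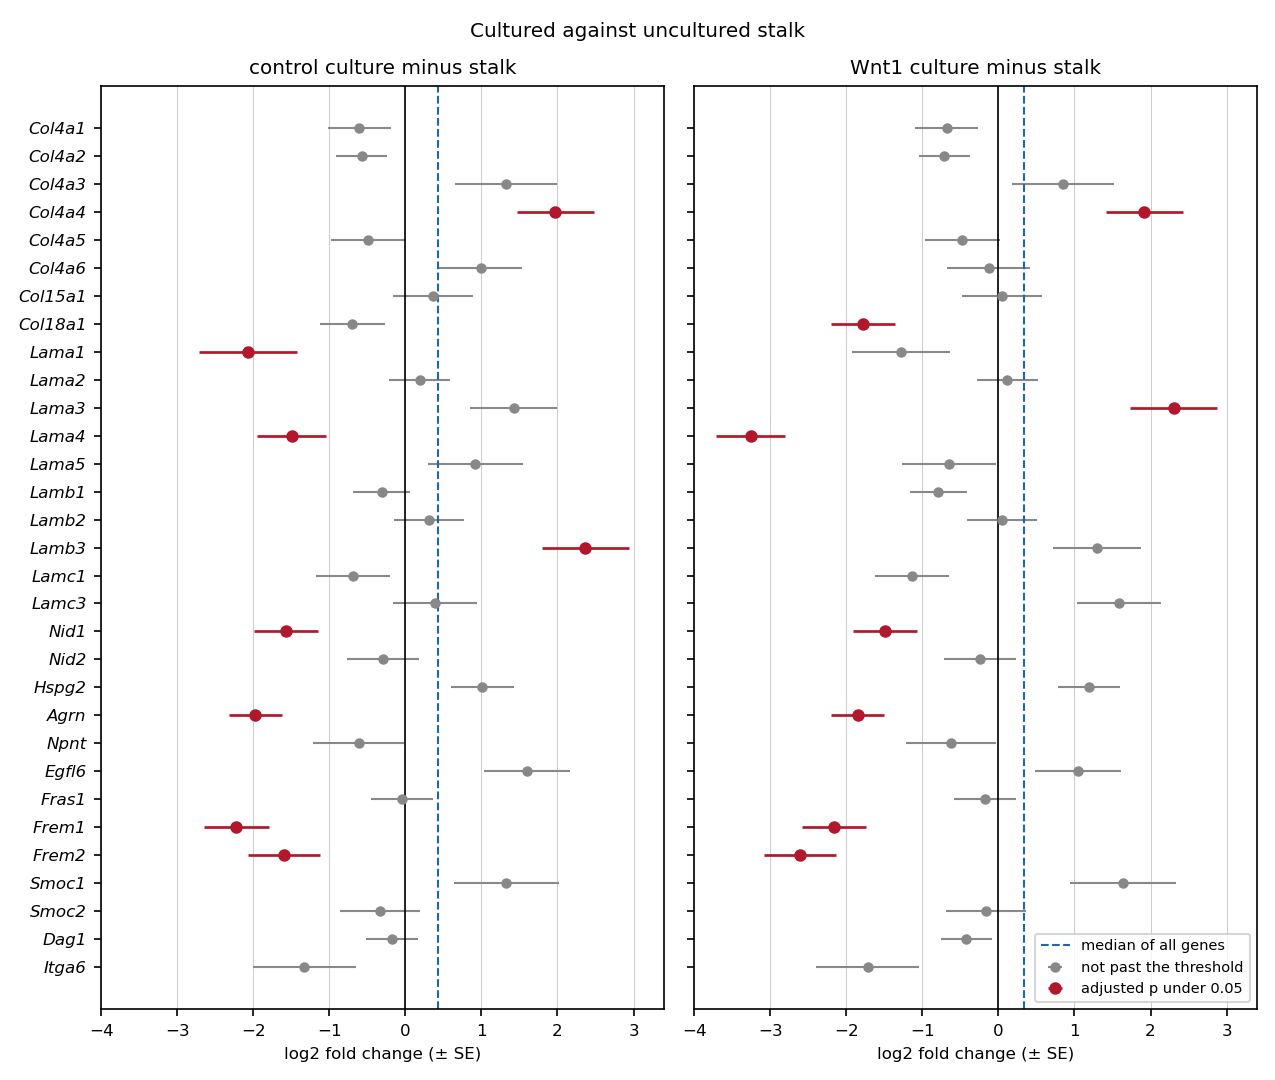
Log2 fold change of signal + 44 (horizontal axis, bars are the standard error) of each of the 31 genes in control culture minus stalk (left) and Wnt1 culture minus stalk (right), 2 arrays per group. Red points passed an adjusted p of 0.05, 8 in each panel, and the dashed line is the median of all genes, 0.43 on the left and 0.33 on the right.

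Among the type IV collagens, the chains of the ubiquitous network, Col4a1 and Col4a2, did not pass in either culture. Col4a1 was at 4474.5 and 5600.3 in stalk, 2364 and 4513 in control culture, and 2167 and 4439 in Wnt1 culture, with differences from stalk of -0.61 ± 0.41 and -0.68 ± 0.41 (SE). Its partner Col4a2 was at 1122 and 1388 in stalk, 784 and 862 in control culture, and 830.0 and 665 in Wnt1 culture, with differences of -0.58 ± 0.33 and -0.71 ± 0.33. Both stalk arrays lay above all cultured arrays for Col4a2, while for Col4a1 control culture replicate 2 lay between the stalk arrays. The pair gave similar differences with adjusted p from 0.14 to 0.27.

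The chains Col4a3 and Col4a4, which with Col4a5 form the network known from kidney glomeruli and from the adult lung, were both at their lowest in stalk. Col4a4 (probe set 1440250_at) was at 62.8 and 217 in stalk, 834 and 445 in control culture, and 712 and 480.05 in Wnt1 culture. All 4 cultured arrays lay above both stalk arrays, and both stalk arrays lay below background. The difference from stalk was 1.97 ± 0.51 (SE, adjusted p = 0.0192) in control culture and 1.92 ± 0.51 (adjusted p = 0.0283) in Wnt1 culture. With all values below background raised to it, the differences were 0.94 and 0.88 and neither passed. The adjusted p rose to 0.166 and 0.222 without stalk replicate 1. It also exceeded 0.05 without stalk replicate 2, without control culture replicate 1 (control culture), and without Wnt1 culture replicate 1 or either tip array (Wnt1 culture).

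Col4a3 was at 12.1 and 16.55 in stalk, 46.7 and 190.2 in control culture, and 114 and 25.8 in Wnt1 culture, below background on every array, with differences of 1.32 ± 0.67 and 0.85 ± 0.67 that did not pass. For Col4a5 the arrays overlapped, with 406 and 1117 in stalk, 436 and 508 in control culture and 666 and 337 in Wnt1 culture. Its neighbour Col4a6 was below background throughout, at 80.2 and 67.6 in stalk, 267 and 132 in control culture, and 67.8 and 60.03 in Wnt1 culture. Neither gene of that pair passed in either culture.

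Collagens XV and XVIII are basement membrane collagens that carry glycosaminoglycan chains, and the end of collagen XVIII is the source of endostatin. Col18a1 (1426955_at), whose upstream sequence is printed above, was at 1423 and 1465 in stalk, 1003 and 762 in control culture, and 643 and 229 in Wnt1 culture. Every cultured array lay below both stalk arrays, and both Wnt1 arrays lay below both control culture arrays. Against stalk the difference was -0.70 ± 0.42 (adjusted p = 0.22) in control culture and -1.78 ± 0.42 (adjusted p = 0.0205) in Wnt1 culture, where it no longer passed without either stalk array (adjusted p of at most 0.162). Col15a1 was at 322 and 349 in stalk, 515 and 384 in control culture, and 642 and 181 in Wnt1 culture, and did not pass.

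The laminin alpha chains, which carry the binding sites for cell receptors and give each laminin trimer its tissue, moved in different directions. Lama4 (1424807_at), the alpha chain of laminins in vessel walls and mesenchyme, was at 902 and 786 in stalk, 278 and 262 in control culture, and 70.1 and 31.2 in Wnt1 culture. The 3 groups did not overlap, and all 4 cultured arrays lay below background. The difference from stalk was -1.50 ± 0.45 (adjusted p = 0.0315) in control culture and -3.26 ± 0.45 (adjusted p = 0.0024) in Wnt1 culture, the largest in size of the 31 genes in Wnt1 culture. With values raised to background it was -1.37 in each culture and passed in neither (adjusted p = 0.0665 and 0.0831). In Wnt1 culture Lama4 was the 1 gene of the 31 that passed with each of the 8 arrays left out in turn, with an adjusted p of at most 0.0497, whereas in control culture it passed in 2 of those 8 fits, those without a Wnt1 culture array.

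Lama1 (1418153_at), the first laminin alpha chain of the embryo, was at 236 and 343 in stalk, 41.8 and 27.8 in control culture, and 219 and 25.8 in Wnt1 culture. Control culture lay below stalk on both arrays, while Wnt1 culture replicate 1 was close to stalk and replicate 2 was not. The difference was -2.07 ± 0.64 (adjusted p = 0.0351) in control culture and -1.28 ± 0.64 (adjusted p = 0.16) in Wnt1 culture. Only stalk replicate 2 was above background, and with values raised to it the difference in control culture was -0.09. Both stalk values were above the medians of their own arrays, 95.5 and 76.5. The gene passed in 2 of the 8 fits with an array left out, those without a Wnt1 culture array.

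Lama3 and Lamb3 are chains of laminin-332, the laminin of hemidesmosomes under epithelia. Lama3 (1444860_at) was at 35.6 and 22.9 in stalk, 138 and 166 in control culture, and 471 and 209 in Wnt1 culture, the groups not overlapping and only Wnt1 culture replicate 1 above background. Its difference from stalk was 1.42 ± 0.57 (adjusted p = 0.078) in control culture and 2.31 ± 0.57 (adjusted p = 0.0232) in Wnt1 culture. Lamb3 (1417812_a_at) was at 50.0 and 6.0 in stalk, 331 and 289.5 in control culture, and 142 and 107.9 in Wnt1 culture. The order of the cultures was thus the opposite of that of Lama3, with 1 control culture array alone above background. The difference of Lamb3 was 2.37 ± 0.58 (adjusted p = 0.0164) in control culture and 1.29 ± 0.58 (adjusted p = 0.12) in Wnt1 culture. With values raised to background, the difference was 0.29 for Lama3 in Wnt1 culture and 0.07 for Lamb3 in control culture. Lama3 passed in 3 of the 8 fits with an array left out, missing without either stalk array (adjusted p of 0.196 without replicate 2), either tip array or Wnt1 culture replicate 1. Lamb3 passed in 5, missing without either stalk array (0.181 without replicate 2) or control culture replicate 1.

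The other laminin chains did not pass in either culture. Lamb1 and Lamc1, the beta and gamma chains of most laminins in the embryo, lay lower in both cultures by value, Lamb1 by -0.31 ± 0.37 and -0.79 ± 0.37 and Lamc1 by -0.69 ± 0.49 and -1.14 ± 0.49. Lama2, a chain of muscle and mesenchyme, stayed between 435 and 675 on the stalk and cultured arrays, with differences of 0.19 ± 0.40 and 0.11 ± 0.40. Lama5, the main alpha chain of later epithelium, was at 294 and 510.3 in stalk, 713 and 837 in control culture, and 551 and 83.7 in Wnt1 culture, whose arrays lay on either side of stalk. Lamb2 differed by 0.31 ± 0.46 and 0.05 ± 0.46 and Lamc3 by 0.39 ± 0.55 and 1.59 ± 0.55.

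Of the proteins that join the networks, Nid1 and Agrn fell in both cultures. Agrn (1426670_at), a heparan sulfate proteoglycan known for clustering receptors at the nerve-muscle junction and present in many basement membranes, was at 3222 and 3403 in stalk, 725 and 905 in control culture, and 1149.9 and 682 in Wnt1 culture. Every cultured array was less than the lower stalk array, and all 8 arrays were above background. The difference was -1.97 ± 0.35 (adjusted p = 0.0064) in control culture and -1.85 ± 0.35 (adjusted p = 0.0094) in Wnt1 culture. Without stalk replicate 2 the adjusted p was 0.0853 and 0.113, and it also exceeded 0.05 without stalk replicate 1.

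Nid1 (1416808_at), which links laminin to type IV collagen, was at 2787 and 3997 in stalk, 767 and 1558 in control culture, and 818 and 1638 in Wnt1 culture. Both cultures lay below stalk and, in each, the array numbered 1 was the lower. The difference was -1.57 ± 0.42 (adjusted p = 0.0227) and -1.49 ± 0.42 (adjusted p = 0.0360). It passed in 5 of the 8 fits with an array left out in control culture (adjusted p of at most 0.183) and in 3 in Wnt1 culture (at most 0.253), the highest in both without stalk replicate 2. The arrays it rested on were both stalk arrays and culture replicate 1, and in Wnt1 culture also both tip arrays, which share the estimate of the spread. Its relative Nid2 overlapped between the groups, at 409.5 and 527 in stalk against 272 and 496 in control culture and 246 and 591 in Wnt1 culture.

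Perlecan, the large heparan sulfate proteoglycan encoded by Hspg2, had the opposite sign to agrin. It was at 1064 and 612 in stalk, 2022 and 1389 in control culture, and 2599 and 1389.7 in Wnt1 culture. The cultured arrays were all above the stalk arrays, with differences of 1.01 ± 0.41 (adjusted p = 0.080) and 1.19 ± 0.41 (adjusted p = 0.062) that missed the threshold.

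Among the integrin alpha 8 ligand nephronectin (Npnt), its relative Egfl6 and the calcium-binding Smoc proteins, none passed. Egfl6 came nearest, at 146 and 78.1 in stalk, 304 and 572 in control culture, and 433 and 162 in Wnt1 culture. No cultured array was below a stalk array, and the differences were 1.60 ± 0.56 (adjusted p = 0.0527) and 1.04 ± 0.56 (adjusted p = 0.19). Npnt was at 912 and 1140.3 in stalk but at 279 and 1455 on the control culture arrays. Smoc1 was at 13.7 and 53.2 in stalk and between 91.1 and 357 in culture, with differences of 1.33 ± 0.69 and 1.64 ± 0.69. Smoc2 differed by -0.33 ± 0.53 and -0.16 ± 0.53.

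Of the Fras and Frem genes, whose products depend on each other at the membrane, Frem1 and Frem2 fell and Fras1 did not pass. Frem1 (1455280_at) was at 1025 and 1458 in stalk, 210.0 and 245 in control culture, and 354 and 158 in Wnt1 culture. Frem2 (1457038_at) was at 1599.6 and 899 in stalk, 308 and 440.5 in control culture, and 109.8 and 227 in Wnt1 culture. In both genes the stalk arrays were all above the cultured arrays. The differences of Frem1 were -2.22 ± 0.42 (adjusted p = 0.0080) and -2.16 ± 0.42 (adjusted p = 0.0108), and those of Frem2 were -1.59 ± 0.47 (adjusted p = 0.0302) and -2.61 ± 0.47 (adjusted p = 0.0080).

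Without stalk replicate 2 the adjusted p of Frem1 was 0.113 and 0.150, and without stalk replicate 1 that of Frem2 was 0.218 and 0.0956. Each also missed the threshold without the other stalk array, and Frem2 in control culture without control culture replicate 1. Fras1 was at 1314 and 823 in stalk, 1112 and 916 in control culture, and 1244 and 671 in Wnt1 culture, the groups overlapping, with differences of -0.04 ± 0.41 and -0.18 ± 0.41.

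The receptors tested were Dag1 and Itga6, and neither passed. Dag1, dystroglycan, was at 2635 and 2263 in stalk, 2006 and 2322 in control culture, and 2275 and 1442 in Wnt1 culture. Itga6, the alpha chain of laminin-binding integrins, was at 654 and 825 in stalk, 96.1 and 642 in control culture, and 93.05 and 364 in Wnt1 culture. All 4 cultured arrays lay below stalk, but within each culture the array numbered 1 was several-fold lower than the other. The differences of Itga6 were -1.33 ± 0.68 (adjusted p = 0.15) and -1.72 ± 0.68 (adjusted p = 0.090). Its other kept probe set overlapped stalk in both cultures, with differences of -0.04 and -0.19. The other kept probe sets of Dag1 lay higher by value in both cultures, by 0.38 to 0.91.

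**Figure D3:**
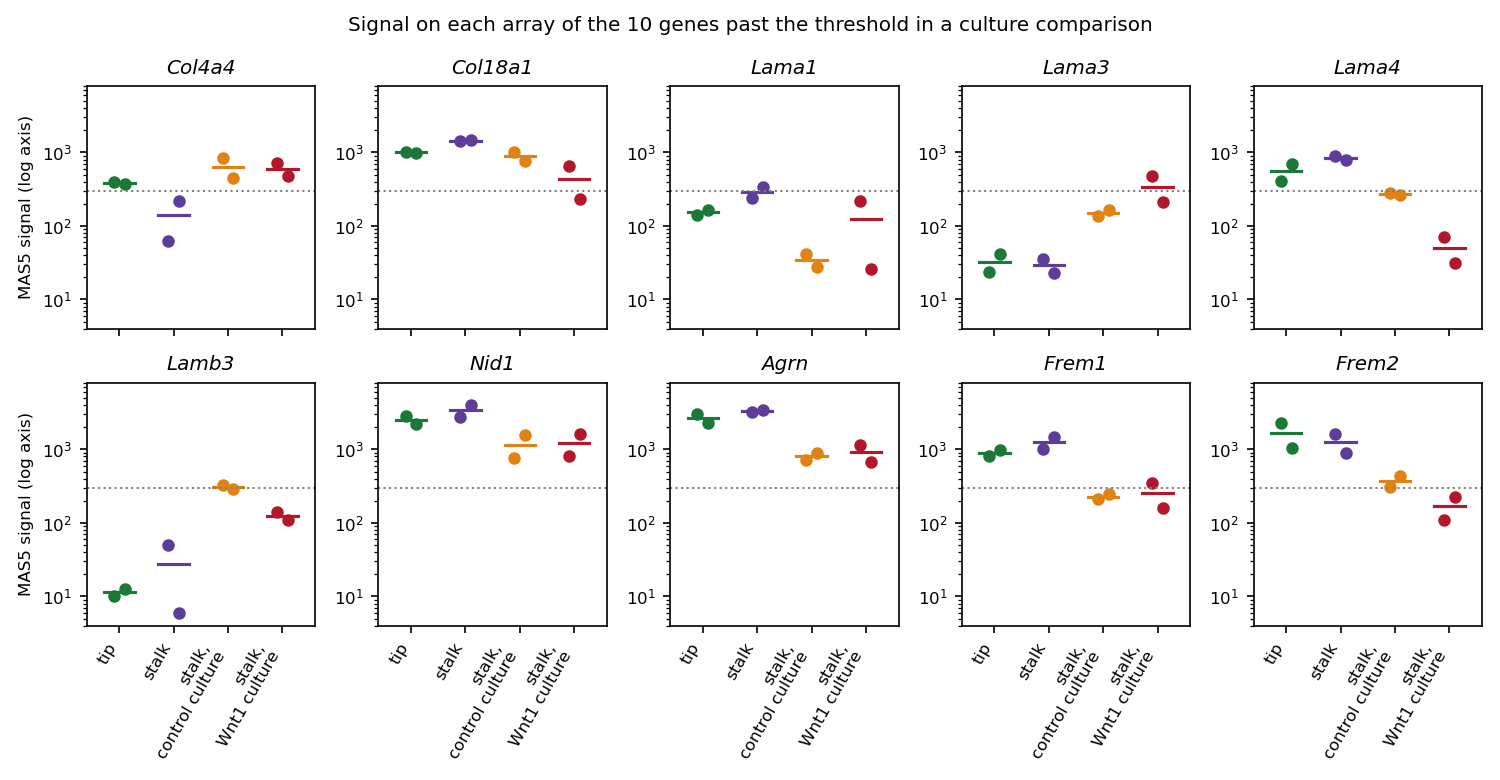
MAS5 signal on each array (points, log axis) of the 10 genes past the threshold in a culture comparison, with the mean of the 2 arrays of each group (bar) and the highest array median, 299, as a dotted line. The stalk arrays lie above every cultured array for Frem1, Frem2, Agrn, Nid1, Lama4 and Col18a1, and Lamb3 and Lama3 lie near or below the dotted line on nearly all arrays.

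Cell type markers also differed between the cultures and stalk. Over all genes, 16.8% were called higher and 9.11% lower in control culture, and 9.15% and 6.75% in Wnt1 culture. The summed signal of airway smooth muscle markers was 6982 to 9706 in stalk, 113427 to 128066 in control culture and 151821 to 182317 in Wnt1 culture. In each culture 6 of the 9 tested (66.7%) were higher and 0 lower. Macrophage markers summed to 4574 to 5035 in stalk, 12732 to 23389 in control culture and 10434 to 11313 in Wnt1 culture. Of the 11 tested, 5 (45.5%) were higher in control culture and 3 (27.3%) in Wnt1 culture, with 0 lower. The cultures in which these genes were called thus also carried more signal of both marker lists.

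The summed signal of the 13 endothelial markers tested, of 14 listed, was 10737 to 12401 in stalk, 3660 to 4284 in control culture and 1914 to 3356 in Wnt1 culture. Of the 13, 7 (53.8%) were lower in control culture and 6 (46.2%) in Wnt1 culture, with 0 higher in either. Of the 11 epithelial markers tested, of 12 listed, 4 (36.4%) were higher in control culture and 3 (27.3%) in Wnt1 culture, with 0 lower in either. Their sums were 1661 to 1862 in stalk, 5730 to 6209 in control culture and 5416 to 13022 in Wnt1 culture. In Wnt1 culture minus control culture, 4 of these 11 had values above 0 and 7 below (median log2 difference -0.14). A sum need not follow most of its markers.

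The mesothelial sum was 3688 to 3853 in stalk and 5786 to 7786 in culture, with 3 of 9 (33.3%) higher in control culture and 2 (22.2%) in Wnt1 culture. Lung mesenchyme markers summed to 30664 to 32730 in stalk and 11242 to 23241 in culture. Of these 10, 7 (70.0%) were lower and 1 higher in control culture and 5 (50.0%) lower in Wnt1 culture. Neuron and glia markers summed to 169 to 482 in stalk and 840 to 1624 in culture. In each culture 1 of 5 (20.0%) was higher, in control culture near the 16.8% of all genes. Pericyte markers summed to 11752 to 13380 in stalk, 5177 to 10240 in control culture and 4483 to 5589 in Wnt1 culture. Of the 7, 0 were called in control culture and 2 (28.6%) were lower in Wnt1 culture. A sum weighs bright markers most: 5 of the 7 had values above 0 in control culture (median log2 difference 0.74) and 3 in Wnt1 culture (median -0.57). No marker of these lists was at 0 on any array, but the lowest single value, 4.21, was far below background, so this does not show cells of each type. The part of these cells in the results was not tested.

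The probe sets of a gene did not always agree. Of 17 genes with several kept probe sets, 11 had both signs in control culture minus stalk and 9 in Wnt1 culture minus stalk. The 11 were Col4a1, Col4a4, Col4a5, Col4a6, Lama4, Lamb1, Lamc1, Nid1, Npnt, Fras1 and Dag1. The 9 were Col4a4, Col4a6, Lama3, Lama5, Lamb1, Lamc3, Nid1, Npnt and Dag1. In tip minus stalk 9 had both signs, and 9 in Wnt1 culture minus control culture. For Nid1 the other kept probe set differed from stalk by 0.01 and 0.43, and for Lama4 by 0.19 and -0.23. This Lama4 probe set never passed background on any array, and that of Nid1 passed it on 1 array, whereas the Nid1 probe set used above was over background on all 8. The Col18a1 probe sets gave the same sign, the other one at -1.08 and -1.62. The other kept probe set of Lama3 differed by 0.26 in control culture and by -0.65 in Wnt1 culture, where Lama3 was called higher. It never passed background on any array. Of the further Col4a4 probe sets, 1 differed by 2.94 (adjusted p over all probe sets = 0.0142) and 2.06, and 1 by -0.46 and -0.02.

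With each probe set tested on its own, Lamb1, Hspg2 and Npnt had a second probe set that was higher in control culture, although the probe set that stands for the gene did not pass. These were 1446180_at of Lamb1 at 2.04, 1418670_s_at of Hspg2 at 2.40 and 1426561_a_at of Npnt at 1.99, with adjusted p over all probe sets of 0.0357, 0.0236 and 0.0256. Against them stood -0.31, 1.01 and -0.61 for the brighter probe sets. When the kept probe sets of each gene were averaged, the median log2 fold change of the members, control culture minus stalk, was 0.34, against 0.55 over all genes, so its sign turned while it stayed below the median of all genes. Lama3, Nid1, Col4a4 and, in control culture, Lama4 then missed the threshold, and Hspg2 and Egfl6 passed it in control culture.

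**Figure D4:**
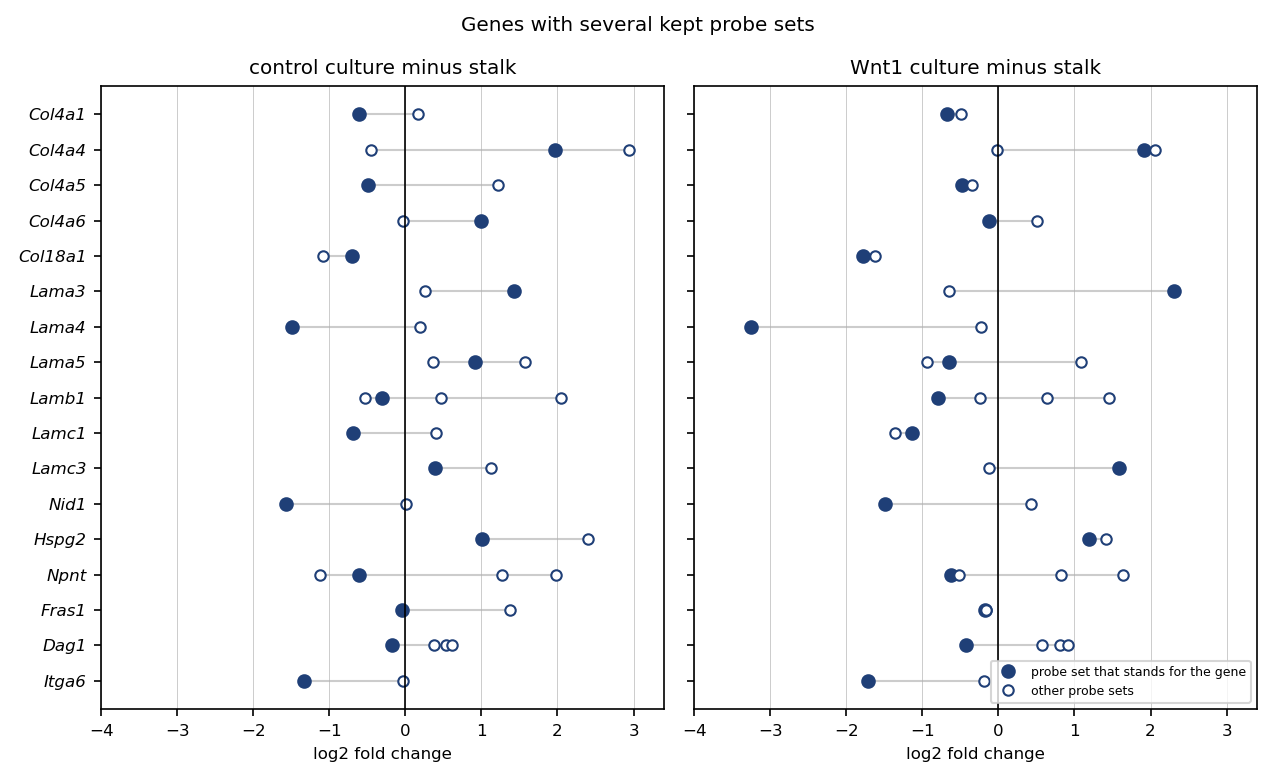
Log2 fold change of signal + 44 for every kept probe set of the 17 genes with several, in control culture minus stalk (left) and Wnt1 culture minus stalk (right), the filled point being the brightest probe set, which stands for the gene. The points of a gene lie on both sides of 0 for 11 genes on the left and 9 on the right.

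The next question was whether branch tip and stalk mesenchyme differ in these genes. No gene passed the threshold, 0 of 31 and 0 of 16112 (0% of all genes) by limma with Benjamini-Hochberg adjustment. At an unadjusted p under 0.05 there were 3, Col4a4, Smoc2 and Lama2, and 96 genes over the whole array (0.596%). By value, more of the genes were lower in tip: both tip arrays lay below both stalk arrays for 12 of 31 (38.7%), against 16.3% of all genes, and above them for 5 (16.1%), against 18.2%.

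The 12 were Col4a1, Col4a2, Col15a1, Col18a1, Lama1, Lama2, Lama4, Lamb1, Agrn, Frem1, Smoc2 and Itga6, and the 5 were Col4a3, Col4a4, Col4a6, Lamc3 and Egfl6. For Lama4, Lamb1 and Col4a6 another kept probe set had the opposite sign. The median difference was -0.24 against 0.01 over all genes, with values below 0 for 51.6% of the 31 genes against 48.7% of all genes. It rested more on 1 tip array than on the other: over the 31 genes tip replicate 1 minus each stalk array had medians of 0.02 and 0.00, and tip replicate 2 had medians of -0.34 and -0.55. In these samples 12 of 13 endothelial markers tested had values below 0, with sums of 6617 to 9380 in tip against 10737 to 12401 in stalk, and 8 of 9 mesothelial markers had values above 0, with sums of 5026 to 8158 against 3688 to 3853. All 11 macrophage markers tested had values below 0, with sums of 1490 to 5170 in tip against 4574 to 5035 in stalk, as had 8 of 9 airway smooth muscle markers, with sums of 2834 to 7736 against 6982 to 9706. None of these markers passed the test. Their part was not tested.

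The 5 largest differences without overlap had an adjusted p of 0.9999 each, so none stands out from the spread. Col4a4 was at 393 and 367 in tip against 62.8 and 217 in stalk, a difference of 1.35 ± 0.51. Its partner Col4a3 was at 79.95 and 60.4 against 12.1 and 16.55, or 0.97 ± 0.67. Smoc2, a calcium-binding matrix protein, was at 182 and 106 in tip against 472 and 365 in stalk, or -1.32 ± 0.53. Lama2 was at 281 and 203 against 533 and 465, or -0.94 ± 0.40, and Egfl6 at 350.4 and 173 against 146 and 78.1, or 0.94 ± 0.56. Both genes of the Col4a3 and Col4a4 pair were thus higher in tip by value, with Col4a3 below background throughout and Col4a4 below it in stalk.

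Col4a1 was at 3696 and 3274 in tip and Col4a2 at 1028 and 875, with differences from stalk of -0.52 ± 0.41 and -0.38 ± 0.33. Collagens XV and XVIII lay lower by value too, Col15a1 at 165 and 196 and Col18a1 at 1018 and 980.0 in tip, with differences of -0.76 ± 0.52 and -0.51 ± 0.42. The genes that fell in culture were at 811 and 983 (Frem1), 2267 and 1059.6 (Frem2), 3068 and 2257 (Agrn), 2823 and 2194 (Nid1), 414 and 701 (Lama4), and 142 and 166 (Lama1) in tip. Lamb3 was at 10.2 and 12.4 and Lama3 at 23.4 and 41.2, in both cases below background, as in stalk. Differences of the remaining genes ran from -0.70 ± 0.68 for Itga6 to 0.56 ± 0.60 for Npnt.

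The last comparison asked what Wnt1 added to culture. Again 0 of 31 genes and 0 of 16112 (0% of all genes) passed by limma with Benjamini-Hochberg adjustment, and 4 of the 31 had an unadjusted p under 0.05 (Lama4, Col18a1, Lama5 and Lamc3), as did 1311 genes in all (8.14%). Both Wnt1 culture arrays lay below both control culture arrays for 6 genes (19.4%), against 16% of all genes, and above them for 2 (6.45%), against 10.2%. The 6 were Col4a6, Col18a1, Lama4, Lama5, Lamb3 and Frem2 and the 2 were Lama3 and Lamc3, so both counts were near the background.

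Lama4 differed most, at 70.1 and 31.2 with Wnt1 against 278 and 262 without, a difference of -1.76 ± 0.45 (adjusted p = 0.536), all 4 arrays being below background. Lama5 was at 551 and 83.7 against 713 and 837, or -1.57 ± 0.62 (adjusted p = 0.56), and Wnt1 culture replicate 1 was much closer to control culture than replicate 2. For Lamc3, a laminin gamma chain, the values were 354 and 259 against 60.95 and 174, or 1.20 ± 0.55. The other kept Lamc3 probe set, below background on every array, differed by -1.25. Col4a6 was at 67.8 and 60.03 against 267 and 132, or -1.12 ± 0.55, below background on every array, while its other kept probe set differed by 0.53. Col18a1 was at 643 and 229 against 1003 and 762, or -1.08 ± 0.42 (adjusted p = 0.555).

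Laminin-332 chains lay on either side, Lama3 at 0.88 ± 0.57 and Lamb3 at -1.07 ± 0.58, and Frem2 was at -1.02 ± 0.47. The other kept Lama3 probe set differed by -0.92. Genes with similar signal in both media included Agrn at 0.12 ± 0.35, Nid1 at 0.08 ± 0.42, Frem1 at 0.06 ± 0.42, Col4a1 at -0.07 ± 0.41 and Col4a4 at -0.06 ± 0.51, intervals too wide to show that they did not differ. The 2 Wnt1 culture arrays disagreed in direction. Over the 31 genes, replicate 1 minus the control culture arrays had medians of 0.24 and 0.11, with 21 genes above 0 in the first, and replicate 2 had medians of -0.38 and -0.67, with 26 genes below 0 in the last. Replicate 2 is also the array with the beta-actin ratio of 6.81 and the epithelial marker sum of 13022, and the part of either was not tested. Its Gapdh ratio of 9.93 was near the 9.73 of replicate 1.

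**Figure D5:**
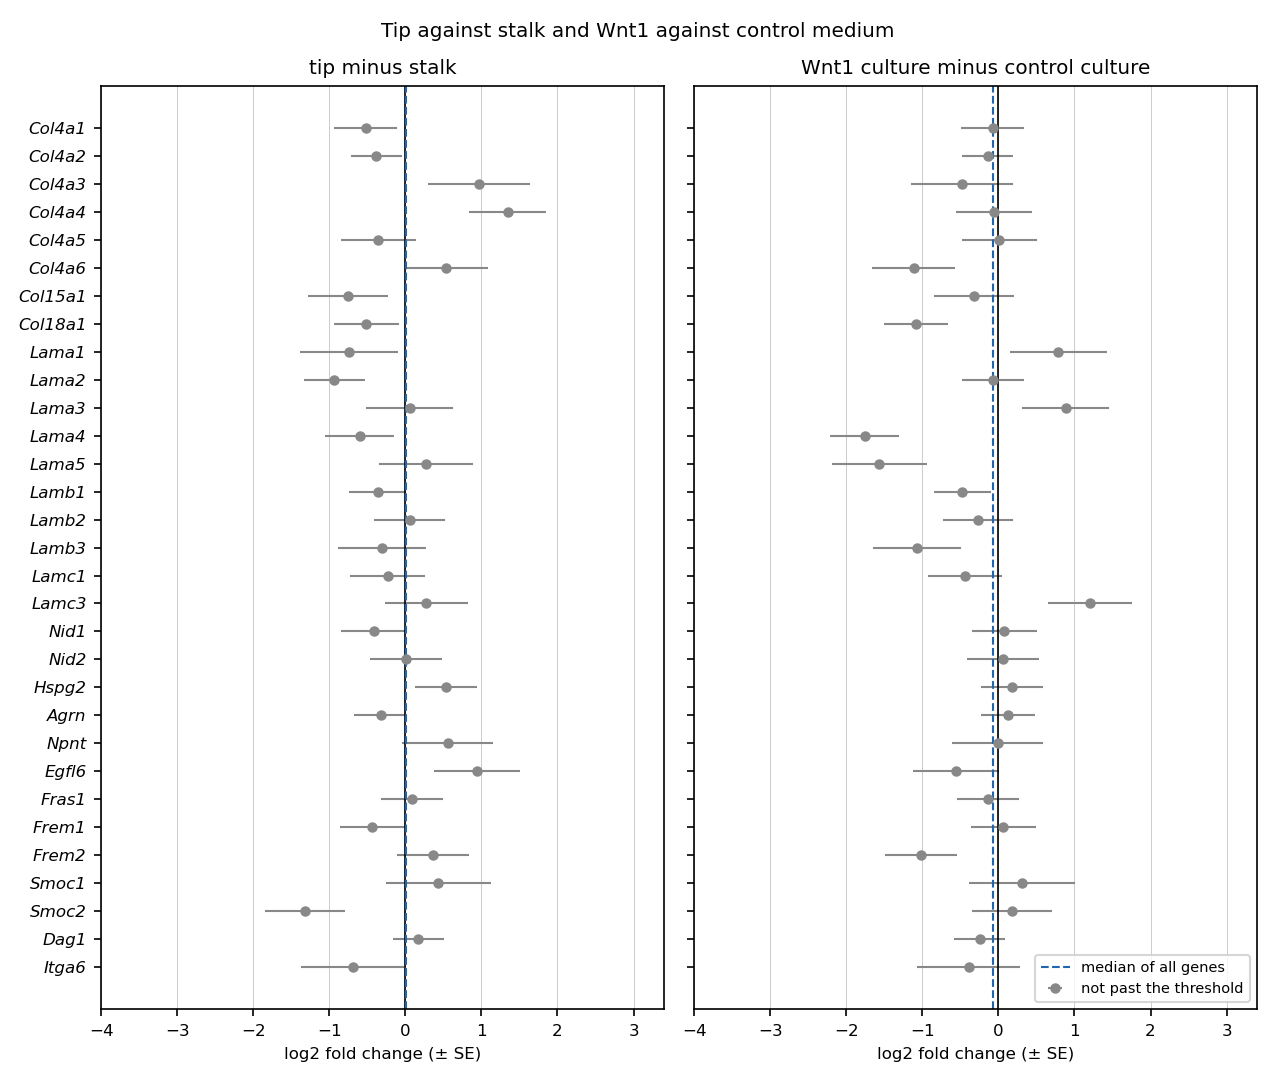
Log2 fold change of signal + 44 (horizontal axis, bars are the standard error) of each of the 31 genes in tip minus stalk (left) and Wnt1 culture minus control culture (right), 2 arrays per group. No point passed an adjusted p of 0.05, and the values run from -1.32 (Smoc2) to 1.35 (Col4a4) on the left and from -1.76 (Lama4) to 1.20 (Lamc3) on the right.

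Genes that serve the same structures were read from 3 further lists, against a background of 25.9% of all genes called in control culture and 15.9% in Wnt1 culture. Of 17 tested genes for collagen folding, modification and crosslinking, 1 rose and 2 fell in control culture: the proline isomerase Ppib was higher by 1.96 ± 0.46 (adjusted p = 0.0152), and the prolyl 3-hydroxylase P3h2 and peroxidasin Pxdn, which crosslinks type IV collagen, were lower by -1.93 ± 0.50 and -1.20 ± 0.39 (adjusted p = 0.0202 and 0.0417). P3h2 was at 318 and 470.3 in stalk and at 70.2 and 68.7 in control culture. Pxdn was at 8571 and 9202 in stalk, 2548 and 5758 in control culture, and 2806 and 2262 in Wnt1 culture, where it was lower by -1.80 ± 0.39 (adjusted p = 0.0157) and Ppib higher by 1.74 ± 0.46. The share of the list called was 17.6% in control culture and 11.8% in Wnt1 culture, below the background in both.

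Of 11 tested further components of the sheet, 3 rose and 0 fell in control culture, or 27.3% called against 25.9% of all genes, a share near the background. These were Tinagl1, a matricellular protein, by 2.14 ± 0.66, the fibulin Fbln2 by 1.71 ± 0.48 and Ecm1 by 1.28 ± 0.43. In Wnt1 culture Tinagl1 and Fbln2 were higher by 2.57 ± 0.66 and 1.66 ± 0.48, and Fbln1 was lower by -1.96 ± 0.50 (adjusted p = 0.0262). Tinagl1 was at 76.0 and 41.4 in stalk, 234 and 669.5 in control culture, and 328 and 929.5 in Wnt1 culture, so 2 of the cultured arrays were below or near background.

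Of 17 tested further receptors and linkers, 2 rose and 1 fell in control culture, or 17.6% called against 25.9% of all genes. The mannosyltransferase Pomt2, which modifies dystroglycan, was higher by 1.71 ± 0.42 and the collagen receptor Ddr1 by 1.40 ± 0.42, and the collagen receptor Ddr2 was lower by -1.64 ± 0.54 (adjusted p = 0.0169, 0.0302 and 0.0430). In Wnt1 culture Pomt2 was higher by 1.52 ± 0.42 and Ddr2 lower by -1.88 ± 0.54. Ddr1 was at 3763 and 3641 in stalk, 6617 and 14610.3 in control culture, and 3948 and 6213 in Wnt1 culture, where it did not pass.

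In tip minus stalk and in Wnt1 culture minus control culture, 0 genes of these 3 lists passed by limma. At an unadjusted p under 0.05 there were 0 in tip, and between the cultures 2 of collagen assembly, 2 of the components and 1 of the receptors and linkers. The largest values in tip were those of the crosslinking enzyme Lox (-0.75 ± 0.35) and Plod1 (-0.41 ± 0.60), the netrins Ntn1 (0.69 ± 0.75) and Ntn4 (-0.48 ± 0.56), and Pomt2 (0.53 ± 0.42) and Itga2 (-0.52 ± 0.61). Between the cultures they were those of P3h2 (2.02 ± 0.50) and P3h3 (-0.92 ± 0.36), Fbln1 (-1.53 ± 0.50) and Papln (1.27 ± 0.61), and Itgb1 (-1.50 ± 0.70) and Dmd (1.14 ± 0.58). P3h2 was at 593 and 289 with Wnt1 and at 70.2 and 68.7 without.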

How the data were processed

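The 8 arrays were Affymetrix arrays of RNA amplified with a two-cycle kit, per the labels' protocols. The deposited values are linear intensity, which the authors computed with MAS5 in Affymetrix Expression Console, per the submitters' processing notes. Versions, scaling and array build: not given in the sources used here. Of 45101 probe sets, 34945 had 1 gene symbol in the platform annotation, 932 several and 9160 none, and 64 were controls. Those with 1 symbol above 96.6 (the 40th percentile) on 2 or more arrays passed the filter, and the probe set with the highest mean log2(value + 44) stood for its gene, 44 being the 25th percentile. All 8 arrays were fitted in 1 model with limma 3.58.1 in R 4.3.3 (lmFit, eBayes with trend), without covariates, with 2-sided tests in 4 comparisons and Benjamini-Hochberg adjustment over 16112 genes at 0.05. The script was tested on simulated data. With 2 arrays against 2, an exact permutation test cannot go below 0.33, so none was run.

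Members, lists and tests were chosen with earlier results of these data known. The text gives every array for genes past the threshold in any comparison and for the 5 largest differences without overlap per comparison, and from other lists up to 4 genes past it or the 2 largest values. In the lists, 9 symbols did not match the platform annotation and were not analysed here. Promoters are from RefSeq, GRCm38.p6. The alternatives, 23 in all, changed the pseudocount, filter, normalization, background, variance model, probe sets, threshold, arrays and replicate block. Figures were drawn with matplotlib 3.10.9.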

Additional observations from a re-analysis of the deposited data

How the results depend on the processing

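The 31 genes were refitted under 15 other settings and with each of the 8 arrays left out. In control culture minus stalk (2 higher, 6 lower), the higher count was 5 at an adjusted p under 0.10 and with every probe set on its own. It was 1 with the filter at the highest array median. After quantile normalization it was 0, as with a signal floor at that median, which left 2 lower. Over all genes 4167 were higher and 2246 lower at 0.10, and 279 and 389 with the floor, against 2712 and 1467 in the main fit. In Wnt1 culture minus stalk (2 higher, 6 lower), the higher count was 4 at 0.10, 1 with array quality weights and with the stricter filter, and 0 with the mean of probe sets, quantile normalization and the floor. Its lower count was 13 without both culture arrays numbered 1, 3 after quantile normalization and 0 with the floor. In Wnt1 culture minus control culture (0 and 0), the counts stayed at 0 under the settings that kept both arrays of each group. Leaving out both culture arrays numbered 1 leaves 1 Wnt1 array against 1 control array, with the spread taken from tip and stalk alone. Calls of that fit are therefore not given. The median difference of the 31 genes between these 2 arrays was -0.67. Why the counts against stalk moved was not tested.

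With 1 array left out, control culture minus stalk gave 0 to 5 higher and 0 to 6 lower, Wnt1 culture minus stalk 0 to 5 higher and 1 to 7 lower, and tip minus stalk and Wnt1 culture minus control culture 0. A lone array left in a group is assumed to vary like the other groups. The number called over all genes also changed between these fits in both comparisons of culture with stalk. None of the 16 calls changed sign under any setting. For each call the groups compared did not overlap, so leaving out 1 array could not turn its sign. With every probe set on its own, the sign was read from the probe set that stands for the gene. Other probe sets of Nid1, Lama3, Lama4 and Col4a4 had the opposite sign, as given above.

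The labels do not say what a replicate number shares, and whether the numbers pair the arrays is not settled: deviations of same-numbered arrays correlated at -0.09 to 0.05 between tip and the other groups, and at 0.14 to 0.30 among stalk and both cultures. With the replicate number as a block, 3 higher and 6 lower passed in control culture minus stalk, 4 higher and 7 lower in Wnt1 culture minus stalk, and 0 in the other comparisons. Over all 16112 genes, 3479 higher and 1873 lower passed with the block in control culture minus stalk. In Wnt1 culture minus stalk they were 2354 and 1550, so calls rose over all genes too.

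Signal over background limits the dim genes: Lamb3, Lama3, Lama1 and Col4a3 were below the highest array median on most or all arrays.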
